A study of Caenorhabditis elegans with 4 samples.

Results

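Chromosome II of C. elegans carried 1133 peaks of T26A5.5 that were found in the list made for the whole series and met in both ChIP replicates, out of 6097 such peaks in the genome. T26A5.5, named jhdm-1 in the WBcel235 gene table, was mapped in early embryos by ChIP-seq, in which DNA crosslinked to a protein is pulled down with an antibody and sequenced. A supported peak was a series-wide peak on II that overlapped, by at least 1 bp, a peak of the replicate 1 list and a peak of the replicate 2 list. Of the 2146 series-wide peaks on II, 52.8% met this rule, and in the genome 6097 of 12350 did. The share was between 41.7% (X) and 51.2% (I) on the other chromosomes. The samples were 2 ChIP and 2 input samples of the wild-type strain N2, males and hermaphrodites mixed, at 20 °C. Input is the sonicated chromatin DNA taken before immunoprecipitation, and every sample was crosslinked for 10 min in 1% formaldehyde. The labels do not say that the replicates were separate cultures, and they give more than 1 code for the antibody.

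T26A5.5 is related to the KDM2 proteins of mammals, JmjC-domain enzymes that remove methyl groups from histone lysines. Mammalian KDM2 proteins also carry a CXXC zinc finger that binds DNA rich in unmethylated CpG, which brings them to many promoters. C. elegans autosomes have a central part that is rich in housekeeping genes and recombines little, and arms with more repeats, more recombination and more histone H3 lysine methylation of the repressive kind. The chromosomes have no single centromere. Whether the peaks of a chromatin protein differ between these parts, and how they are spaced, can be described from the positions alone.

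Positions are WS220 coordinates and were not assigned to genes, since no WS220 annotation was used here. II was taken as 15.28 Mb long, the highest peak end in any list, and divided by peak midpoint into a left outer zone, a right outer zone and a central zone. The outer zones were the first and the last 25% of the length (3.82 Mb each) and the central zone the middle 50% (7.64 Mb). The limits lay at 3.82 and 11.46 Mb. The files hold intervals and scores and no reads, so their depth is unknown. Scores have no stated unit and were compared only within a list. An exact two-sided sign test over 2 ChIP replicates cannot give a p below 0.5, so no difference between zones was tested. Many differences are given beside the same value in the replicate 1 list (738 peaks on II) and the replicate 2 list (1145 peaks). Others, such as regions per Mb and the shares of wide peaks, are given for supported peaks alone. Wilson 95% intervals reflect counting error alone and treat peaks as independent, which neighbours are not.

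Most supported peaks were well inside the replicate peaks. On II 1015 of 1133 (89.6%) were covered along their whole length in both replicates, and 35 (3.09%) had less than 50% covered in at least 1 of them. At the edge of the rule, II 12756313 to 12756766 and II 15272491 to 15272682 shared 3 bp with a replicate peak, with scores of 5.14 and 3.54. Just outside it, II 4296974 to 4297877 missed by 3 bp with a score of 10.27, and II 1509168 to 1509493 missed by 12 bp with a score of 8.26. The 1133 supported peaks met 628 of the 738 replicate 1 peaks and 658 of the 1145 replicate 2 peaks. Several supported peaks met the same peak in 263 cases in each replicate list. A supported peak is thus often a part of a wider interval in the replicates.

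Counted as peaks, T26A5.5 was spread almost evenly over the zones of II. The left outer zone held 264 supported peaks or 69.1 per Mb, the right outer zone 285 or 74.6 per Mb, and the central zone 584 or 76.5 per Mb. The ratios to the central zone were 0.904 for the left and 0.976 for the right outer zone. The replicate lists did not give the same order. In the replicate 1 list the left and right outer zones had 42.4 and 43.7 peaks per Mb, against 53.5 in the central zone, ratios of 0.792 and 0.817. In the replicate 2 list they had 70.2 and 85.4, against 72.1, ratios of 0.973 and 1.18. The right outer zone was thus sparser than the central zone in replicate 1 and denser in replicate 2. For that zone the direction cannot be given.

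**Figure D1:**
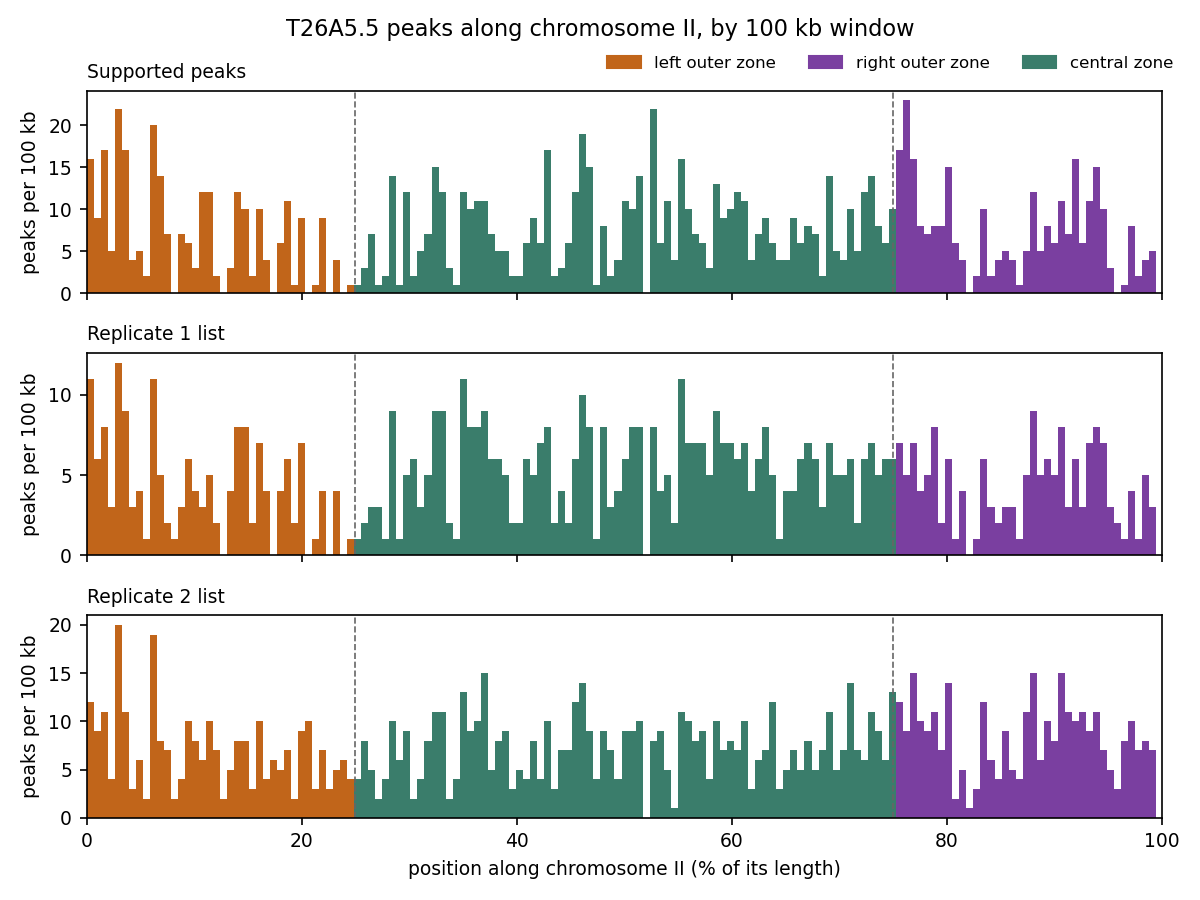
Number of peaks per 100 kb window (vertical axis, 152 whole windows) against position along chromosome II in percent of its length, for supported peaks and for the replicate 1 and replicate 2 lists, with dashed lines at 25% and 75%. Supported peaks were dense in the first windows and just past the line at 75%, where 1 window held 23, and 9 windows held 0.

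The amount of DNA under supported peaks went the other way from their number. They covered 59.3 kb per Mb in the left outer zone and 66.4 in the right outer zone, against 55.3 in the central zone, ratios of 1.07 and 1.20. These ratios were 0.857 and 0.917 in the replicate 1 list and 1.05 and 1.08 in the replicate 2 list. The outer zones thus had more covered DNA than the central zone among supported and replicate 2 peaks, and less among replicate 1 peaks.

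The share of series-wide peaks supported by both replicates was 44.7% in the left outer zone (264 of 590, Wilson interval 40.8 to 48.8) and 52.9% in the right outer zone (285 of 539, 48.7 to 57.1), against 57.4% in the central zone (584 of 1017, 54.4 to 60.4). The left outer zone's interval lies below that of the central zone, and the right outer zone's overlaps it. Neighbouring peaks are not independent, so these intervals cannot decide whether the zones differ. Peaks met by replicate 2 only made up 29.2% in the left and 26.5% in the right outer zone, against 20.2% in the central zone. Peaks met by replicate 1 only made up 11.7%, 6.68% and 10.8% in the same order of zones. From the side of the replicate lists, 87.0% of replicate 1 peaks in the left outer zone met a replicate 2 peak, with 89.2% in the right outer zone and 84.1% in the central zone. Of the replicate 2 peaks, 54.9% in the left and 52.5% in the right outer zone met a replicate 1 peak, against 65.7% in the central zone. The outer zones thus held more intervals that were called in replicate 2 alone. Whether depth or the caller's settings differed between the replicates was not tested.

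Supported peaks on II came in groups. Of 1132 gaps between neighbours, 492 (43.5%, Wilson interval 40.6 to 46.4) were under 1000 bp, while 75 gaps of 50 kb or more took up 6.93 Mb, or 45.3% of the chromosome. The median gap was 1762 bp. Peaks less than 1000 bp apart were joined into regions, which gave 641 regions on II, 389 with a single peak and 252 with several. The regions with several held 744 peaks, 65.7% of all. Of the gaps under 1000 bp, 465 of 492 (94.5%) lay between peaks that met the same replicate 1 peak, and 442 (89.8%) between peaks that met the same replicate 2 peak. A region with several peaks was thus mostly a single interval in each replicate list.

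More supported peaks had a close neighbour in the outer zones, and regions were less evenly spread over the zones than peaks. The left outer zone had 131 regions or 34.3 per Mb and the right outer zone 155 or 40.6 per Mb, against 355 or 46.5 per Mb in the central zone. Regions held 2.02 peaks on average in the left and 1.84 in the right outer zone, against 1.65 in the central zone. The share of peaks that had a neighbour within 1000 bp was 75% in the left outer zone (Wilson interval 69.4 to 79.8) and 67.7% in the right outer zone (62.1 to 72.9), against 60.4% in the central zone (56.4 to 64.3). The left outer zone's interval does not meet that of the central zone, and the right outer zone's does. All peaks of a region share this trait by definition, so the intervals are too narrow and cannot decide whether the zones differ. In the replicate 1 list the share of gaps under 1000 bp was 18.0% in the left and 6.59% in the right outer zone, against 14.2% in the central zone. In the replicate 2 list it was 27.6% and 25.5%, against 25.5%. The excess of short gaps in the right outer zone was therefore seen among the narrower series-wide intervals and in neither replicate list.

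**Figure D2:**
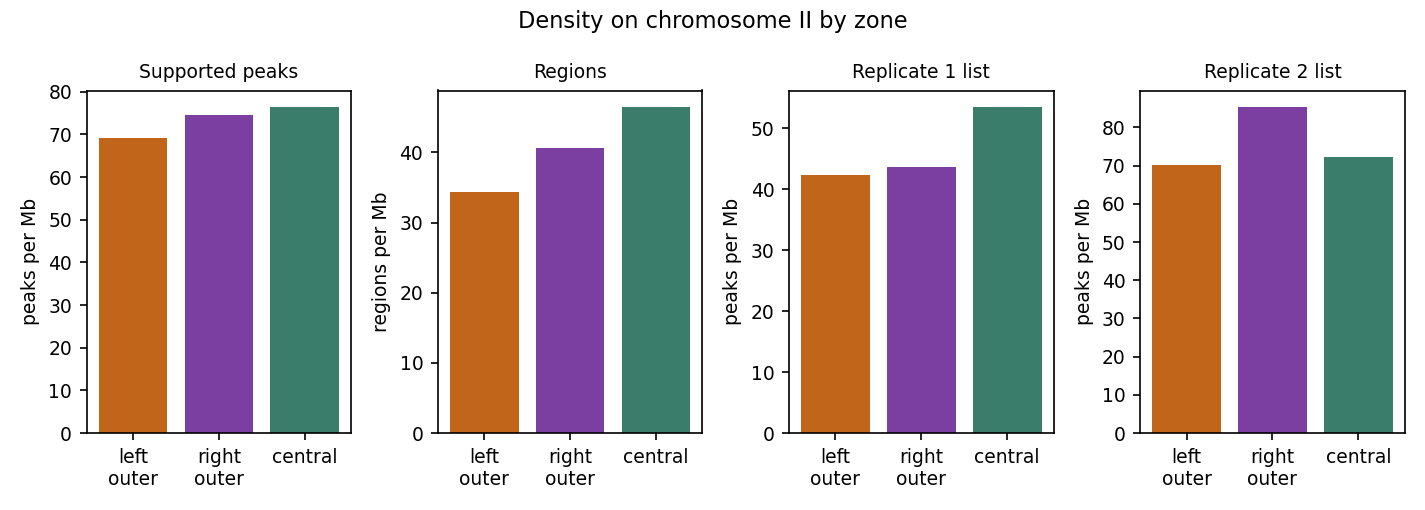
Bars give the density per Mb on chromosome II in the left outer, right outer and central zone, for supported peaks, for regions (supported peaks less than 1000 bp apart joined), and for the replicate 1 and replicate 2 lists. Each bar is the value of a single list, without an error. Regions numbered 34.3, 40.6 and 46.5 per Mb, a wider spread between zones than the 69.1, 74.6 and 76.5 supported peaks per Mb.

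The gaps themselves differed in form as well. The median gap between supported peaks was 937 bp in the left outer zone and 1568 bp in the right outer zone, against 2334 bp in the central zone. Among gaps of 1000 bp or more the order turned round, with medians of 11584 bp in the left and 11499 bp in the right outer zone, against 7922 bp in the central zone. Gaps of 50 kb or more took up 55.8% of the left outer zone, in 20 gaps, and 42.8% of the right outer zone, in 16 gaps, against 41.4% of the central zone, in 39 gaps. Among supported peaks the outer zones thus had a larger share of short gaps, and their remaining gaps had a longer median. In the replicate 1 list the median gap was 7134 bp in the left and 11123 bp in the right outer zone, against 6714 bp in the central zone. In the replicate 2 list it was 3488 and 3981 bp, against 3771 bp. By number, gaps of 50 kb or more were 7.60%, 5.61% and 6.68% of supported-peak gaps (left outer, right outer and central zone). In the same order they were 11.8%, 9.58% and 6.85% in the replicate 1 list and 5.60%, 3.37% and 4.73% in the replicate 2 list. The right outer zone thus had the smallest share among supported peaks and in replicate 2. In replicate 1 both outer zones were above the central zone.

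**Figure D3:**
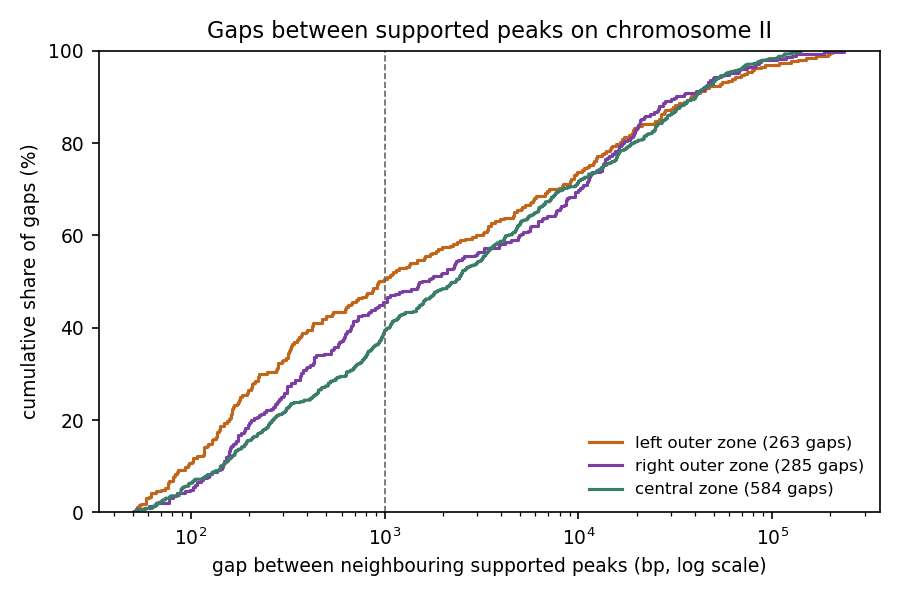
Cumulative share of gaps (vertical axis, percent) against gap length in bp on a log axis, for the left outer zone (263 gaps), the right outer zone (285) and the central zone (584), with a dashed line at 1000 bp. At that line the curves stand at 50.6%, 45.6% and 39.2%, and they cross at longer gaps.

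The 5 longest stretches without a supported peak all lay in the outer zones. The longest was II 14562182 to 14797768, of 236 kb. It held 24 series-wide peaks that were not supported, the highest with a score of 73.37, and 2 replicate 1 peaks and 11 replicate 2 peaks. II 3088212 to 3291355 (203 kb) had 6 unsupported series-wide peaks, no replicate 1 peak and 12 replicate 2 peaks. II 1862343 to 2061747 (199 kb) had 10 unsupported peaks, with 1 peak in replicate 1 and 5 in replicate 2. II 2576450 to 2769829 (193 kb) had 13, with 1 in replicate 1 and 7 in replicate 2. No replicate 1 peak in these 4 stretches met a replicate 2 peak, which follows largely from how supported peaks were chosen. The fifth, II 12484674 to 12670933 (186 kb), was nearly empty in every list, with 2 unsupported series-wide peaks, no replicate 1 peak and 1 replicate 2 peak. In the replicate 1 list the longest gap lay in the left outer zone (201576 bp). It lay in the central zone in the replicate 2 list (140289 bp) and among all series-wide peaks (121323 bp). The place of the longest gap thus depended on the list. Missed peaks cannot be told apart from absent binding where the depth is unknown.

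Peak widths on II ran from 146 to 11589 bp with a median of 569 bp. The median was 640 bp in the left outer zone and 562 bp in the right outer zone, against 554 bp in the central zone. Among supported peaks the upper part of the distribution differed more than the median. The upper quartile was 1013 bp in the left and 973 bp in the right outer zone, against 812 bp in the central zone. Peaks over 1000 bp made up 25.8% in the left (68 of 264, Wilson interval 20.9 to 31.4) and 23.9% in the right outer zone (68 of 285, 19.3 to 29.1), against 18.7% in the central zone (109 of 584, 15.7 to 22.0). Peaks over 2000 bp made up 6.82% and 9.12%, against 3.25%. In the replicate 1 list the median widths were 2039 and 1984 bp in the left and right outer zones, against 1727 bp in the central zone. In the replicate 2 list they were 1574 and 1379 bp, against 1432 bp. The left outer zone thus had a wider median than the central zone among supported peaks and in both replicate lists. Among all series-wide peaks, supported or not, it had a narrower median, 359 against 408 bp. For the right outer zone the direction of the median differed between the replicate lists. The upper quartile in the replicate 1 list was 2896 bp in the left and 3219 bp in the right outer zone, against 2918 bp in the central zone. In the replicate 2 list it was 2825 and 2247 bp, against 2830 bp. Of these, only the right outer zone of replicate 1 was above the central zone.

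The widest supported peak was II 13817076 to 13828664, of 11589 bp, in the right outer zone. Its series-wide score, 64.77, was only the 122nd highest on II. The next were II 8476406 to 8483813 (7408 bp, score 47.18), II 11973916 to 11979874 (5959 bp, score 82.88), II 11756506 to 11762336 (5831 bp, score 73.34) and II 8786968 to 8791666 (4699 bp, score 96.79). Each of these 5 met a peak with a score of 3100 in both replicate lists. That value is repeated often, since 218 supported peaks of II met it in replicate 1 and 427 in replicate 2. None of the 5 was among the 10 highest scores of II. This depends on the cut at 5, since II 9258108 to 9262381 ranked 9 by width and 6 by score.

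The 10 highest-scored supported peaks of II were of 2 forms, broad intervals over 1 kb and narrow ones under 500 bp. The highest was II 12787594 to 12791225, of 3632 bp, with a series-wide score of 120.44. It met 1 replicate 1 peak and 3 replicate 2 peaks, and its best replicate scores were 3100 and 3100. Broad peaks of the same set were II 5419371 to 5421494 (2124 bp, 109.56), II 13320360 to 13322555 (2196 bp, 107.45), II 9258108 to 9262381 (4274 bp, 105.23), II 14405305 to 14408238 (2934 bp, 104.94) and II 4590361 to 4591580 (1220 bp, 103.69). All of these broad peaks had scores of 3100 in both replicates.

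The other 4 of the 10 were narrow. II 14018031 to 14018506 (476 bp) had a series-wide score of 116.5 and scored 1688.18 in replicate 1 and 3100 in replicate 2. II 11223948 to 11224389 (442 bp) scored 106.11, with 1736.87 in replicate 1 and 3100 in replicate 2. II 13521077 to 13521542 (466 bp) scored 104.44, with 2683.51 and 3100. II 216503 to 216976 (474 bp) scored 102.93, with 908.61 and 3100, and was the highest-scored peak of the left outer zone. The narrow peaks thus had lower replicate 1 scores than the broad peaks of the same set. Of the 10, 1 lay in the left outer zone, 5 in the right outer zone and 4 in the central zone. The next highest in the left outer zone were II 2214028 to 2215545 (1518 bp, 102.42) and II 3305020 to 3307526 (2507 bp, 100.69). Among the highest 10% of scores on II, 67.4 or more, were 23 of 264 peaks of the left outer zone (8.71%, Wilson interval 5.88 to 12.7) and 40 of 285 of the right outer zone (14.0%, 10.5 to 18.5), against 51 of 584 of the central zone (8.73%, 6.70 to 11.3). These intervals overlap.

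The order of the zones by median score differed between the lists. Supported peaks had a median series-wide score of 17.03 in the left and 19.38 in the right outer zone, against 23.93 in the central zone. The best replicate 1 peak that they met had a median score of 815 in the left and 1087 in the right outer zone, against 743 in the central zone. For replicate 2 these medians were 1970 and 2334, against 1701. The peaks of the outer zones were thus lower by the series-wide score and the replicate peaks over them higher. Counting each replicate 1 peak once, the median score was 485 in the left and 547 in the right outer zone, against 412 in the central zone. For replicate 2 it was 573 and 431, against 450.

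Taken per peak, the series-wide score was lower where peaks were grouped. Peaks with a neighbour within 1000 bp had median scores of 12.76 in the left and 11.73 in the right outer zone, against 16.25 in the central zone. Peaks that stood alone had 35.67 and 32.52, against 30.43. The highest-scored peak of each region had a median of 33.10 in the left and 39.07 in the right outer zone, against 36.64 in the central zone. The remaining peaks of the regions, 133, 130 and 229 in number, had medians of 7.69 and 7.11, against 7.03. Over all regions, the right outer zone was thus above the central zone and the left below it, while per peak both were below. Regions held unequal numbers of peaks, and the order changed by type. In regions with several peaks the median highest score was 33.04 in the left and 48.75 in the right outer zone, against 49.65 in the central zone. Over II that median was 47.43 in regions with several peaks and 30.93 in those with 1. By their highest score, regions with several peaks were below those with 1 only in the left outer zone. This sets the highest of several scores against a single score, which favours regions with several peaks. It cannot decide which type is stronger. Width and score rose together across supported peaks in each zone, with a Spearman rho of 0.655 in the left outer (n = 264), 0.647 in the right outer (n = 285) and 0.589 in the central zone (n = 584). These are correlations across peaks of a single list and carry no test.

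**Figure D4:**
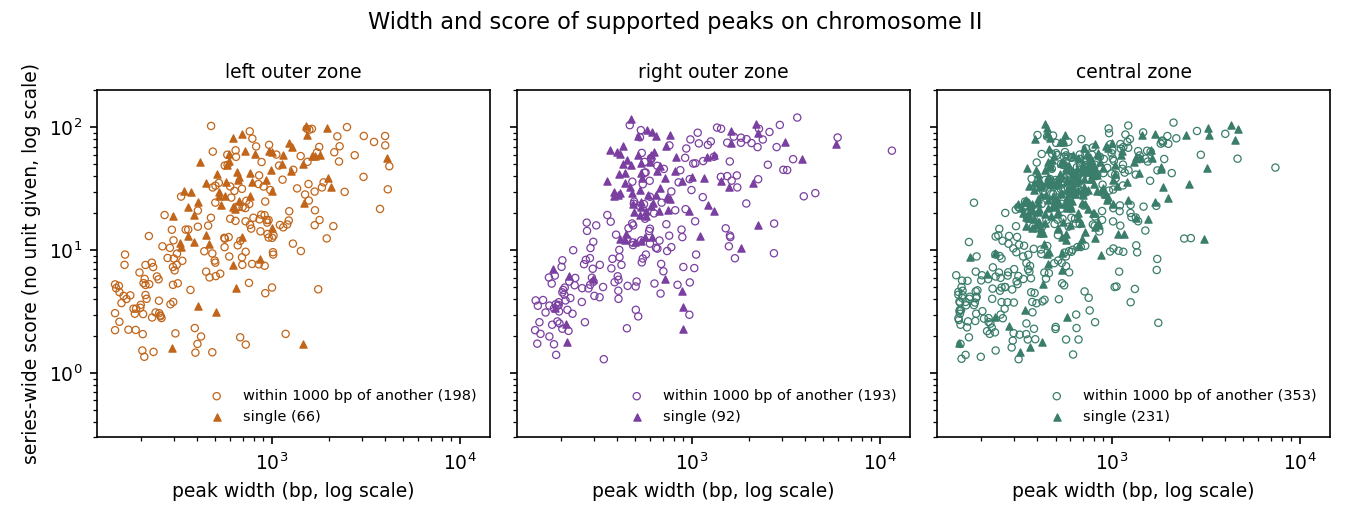
Series-wide score against peak width in bp, both on log axes, for supported peaks of the left outer, right outer and central zone of chromosome II. Open circles are peaks with another supported peak within 1000 bp and filled triangles are peaks that stand alone, which had median scores of 35.67, 32.52 and 30.43 in the 3 zones.

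The densest 1 Mb bin of II was 11 to 12 Mb, which lies across the limit of the central and the right outer zone. It held 121 supported peaks, against a mean of 71.3 (SD 20.4, 28 to 117) in the other 14 whole bins, and its density was 1.71 times that of the rest of II. The rank of this bin depended on what was counted. It had 56 regions, fewer than the 60 in 8 to 9 Mb and the 58 in 0 to 1 Mb. It ranked 2 of 15 by covered DNA, with 97.6 kb, 4 of 15 in the replicate 1 list with 58 peaks, and 1 of 15 in the replicate 2 list with 100. Relative to the rest of II its density was 1.22 times in the replicate 1 list and 1.37 times in the replicate 2 list. There were 2.09 supported peaks per replicate 1 peak in the bin, against a mean of 1.51 (SD 0.226) in the other whole bins, where the highest was 2.03. Per replicate 2 peak there were 1.21, against a mean of 0.974 (SD 0.211) in the others, where the highest was 1.31.

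Inside 11 to 12 Mb no 100 kb window was empty, with 6 to 23 supported peaks per window and a median of 11. The longest gap was 67470 bp, from II 11797526 to 11864995, shorter than the longest gap of every other whole bin. Of the series-wide peaks of the bin 68.0% were supported, the highest share of the whole bins (30.8 to 64.1% in the others). The median width was 537 bp in the bin and 574 bp in the rest of II, and the median scores were 20.00 and 21.67. In the bin 76.0% had a neighbour within 1000 bp, against 64.4% in the rest. The 5 highest scores were at II 11223948 to 11224389, already described, II 11613988 to 11615346 (99.84), II 11166944 to 11167395 (99.41), II 11537358 to 11539629 (97.59) and II 11038570 to 11040033 (91.30). II 11166944 to 11167395 was 452 bp wide and scored 732.00 in replicate 1, against 3100 in replicate 2.

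The bin also held the region with the most peaks on II, 17 within 15245 bp from II 11613988 to 11629232. Its first peak had a score of 99.84 and a width of 1359 bp, and the other 16 had scores from 2.32 to 15.00. Their widths were between 147 and 1692 bp, and peaks covered 59.9% of the region. In replicate 2 the whole region lay in a single peak, II 11613745 to 11638229, the widest of that list on II at 24485 bp. In replicate 1 it lay in 2 peaks, II 11613733 to 11622094 (8362 bp, score 1880.93) and II 11622099 to 11638385 (16287 bp, score 1087.18), which lay 4 bp apart. The replicate 2 peak met 20 supported peaks, the most of any in that list on II, and ran past the end of the region. The joining rule of 1000 bp left the further peaks out of the region. Within the region, the part of a broad enriched interval was thus written as 1 strong and 16 weak peaks in the series-wide list. The region next in number was II 7046967 to 7054058 with 9 peaks, whose highest scores were 49.56 and 38.44 and whose median was 4.19. The 5 regions with 7 peaks all lay in the left outer zone. The first of them, II 216503 to 222723, had a highest score of 102.93, the next score at 34.65 and a median of 9.87. In the other 4 the highest score was between 13.19 and 70.38 and the median between 5.85 and 16.09, so a single peak far above the rest was not common to them.

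The next densest bins were 0 to 1 Mb, with 117 supported peaks in 58 regions, and 8 to 9 Mb, with 98 in 60. The sparsest were 3 to 4 Mb, with 28 peaks in 18 regions, and 2 to 3 Mb and 12 to 13 Mb, with 59 peaks each in 32 and 30 regions. The bin at 3 to 4 Mb also had the fewest replicate 1 peaks, 20. In replicate 2 it had 59 peaks, close to the lowest of 58, at 2 to 3 Mb. Only 30.8% of its 91 series-wide peaks were supported. It was thus sparse in each list.

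The left outer zone was made up of a dense end and a sparse remainder. Its first Mb had 117 supported peaks per Mb and the other 2.82 Mb had 52.1 per Mb. Replicate 1 had 68.0 and 33.3 peaks per Mb in these parts, and replicate 2 had 97.0 and 60.7. The contrast was thus present in both replicates. By region the first Mb had 58.0 per Mb and the remainder 25.9, where gaps of 50 kb or more took up 65.4% of the length. The right outer zone had a like pattern at its inner side. Its 0.543 Mb within the bin at 11 to 12 Mb had 140 supported peaks per Mb, and the 3.28 Mb beyond had 63.8. Replicate 1 had 59.0 and 41.2 per Mb there, and replicate 2 had 116 and 80.3. These stretches were picked for their density, and the central zone keeps its own dense bins, so the remainders are a description and no comparison with the central zone.

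At the scale of 100 kb, II had a mean of 7.42 supported peaks per window (SD 5.25, 152 windows). The densest windows were 11.6 to 11.7 Mb with 23, 0.4 to 0.5 Mb and 8.0 to 8.1 Mb with 22 each, 0.9 to 1.0 Mb with 20 and 7.0 to 7.1 Mb with 19. In regions these came to 4, 9, 10, 10 and 9, so the first window had fewer regions than the other 4. By covered DNA it ranked 5 of 152, with 17.8 kb, against a mean of 5.91 kb per window. Of the 9 windows with 0 supported peaks, 6 lay in the left outer zone, 2 in the right outer zone and 1 in the central zone. The SD over windows was 6.13 in the left and 5.36 in the right outer zone, against 4.77 in the central zone. Across windows the numbers of replicate 1 and replicate 2 peaks had a Spearman rho of 0.705 (n = 152 windows, which share the calling and any mappability of the sequence).

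Counted as supported peaks, the zone ratios of II were nearer to 1 than those of the other autosomes. The left outer to central ratio was 0.904 on II and 0.617 to 0.833 on the other autosomes, and the right outer to central ratio was 0.976 on II and 0.643 to 0.788 on them. On X these ratios were 1.06 and 0.883. By region, II was not the nearest to even on the left. The left outer and central zones held 34.3 and 46.5 regions per Mb on II, and 33.0 and 39.8 on IV. The ratios of II in the replicate 1 list were 0.792 and 0.817, and the replicate lists were not compared by zone on the other chromosomes. The central zone of II held 46.5 regions per Mb, against 57.7 and 63.0 on I and III, the 2 chromosomes with more supported peaks per Mb than II. In the outer zones the numbers were closer, with 34.3 per Mb on II in the left outer zone, 38.5 on I and 35.7 on III, and 40.6, 40.9 and 42.1 in the right outer zone. The share of peaks with a neighbour within 1000 bp was 75%, 67.7% and 60.4% on II, 67.5%, 66.8% and 57.6% on I and 76.2%, 70.3% and 61.7% on III, for the left outer, right outer and central zones. It was 60.3%, 82.0% and 59.2% on IV, 69.7%, 72.7% and 59.1% on V and 65.6%, 51.6% and 60.3% on X. The share was thus above that of the central zone in both outer zones of every autosome, by little in the left outer zone of IV, and below it in the right outer zone of X. No difference between chromosomes was tested.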

How the data were processed

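ChIP and input samples of N2 early embryos were grouped by their titles. Per the submitters' processing notes, BWA and ce10 were used. Per the file headers, coordinates are WormBase WS220, and the source column names MACS for the replicate lists and MACS v2 for the series-wide list. Cut-offs, the control and any pooling of reads were not stated. The deposited score of each peak is the authors' own, with no unit stated. No file used here holds input values or read counts.

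Peaks were compared as closed 1-based intervals with an overlap of at least 1 bp. Zones and bins were assigned by midpoint. Gaps are the bases between neighbouring supported peaks, and regions join peaks less than 1000 bp apart. Named peaks, gaps, bins and regions were the highest, widest, longest or densest by a fixed rule. The members and lists were chosen with earlier results of these data known. No p-values were computed. Overlap, zone and joining steps were tested on simulated lists. The alternatives covered the list used, overlap, score, zone limits, joining, covered bases and left-out bins. Software was matplotlib 3.10.9, scipy 1.17.1, pandas 2.3.3 and numpy 2.4.6 under Python 3.11.15.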

Additional observations from a re-analysis of the deposited data

How the results depend on the processing

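The spread used here is the SD between the replicate 1 and replicate 2 lists. It was 0.128 for the left and 0.259 for the right density ratio. For the width and score ratios it was 0.0574 and 0.0690 on the left, and 0.132 and 0.260 on the right. For the percent of gaps under 1000 bp it was 8.96, and for the bin at 11 to 12 Mb 0.105. Support by both replicates has no such SD, and its Wilson interval over peaks (50.7 to 54.9) was used. The left outer to central density ratio, 0.904, turned to 1.16 with all series-wide peaks and 1.07 with base pairs covered, and was 0.713 for scores from the median up, 0.738 with peaks joined under 1000 bp and 0.682 without the first Mb. Support by a single replicate gave 0.960 to 1.11. The right outer ratio, 0.976, turned to 1.18 in the replicate 2 list, 1.20 with base pairs covered and 1.06 with all series-wide peaks. Support by a single replicate gave 0.925 to 1.08. The right outer to central width ratio, 1.01, was 0.963 and 1.15 in the replicate 2 and replicate 1 lists, 0.966 among all series-wide peaks, 1.17 for scores from the median up and 1.43 with peaks joined. The score ratio, 0.810, was 1.33 in the replicate 1 list and 1.18 for scores from the median up. For the left outer zone the width ratio, 1.15, was 0.879 with all series-wide peaks and 0.969 with support by replicate 2 alone. The left score ratio, 0.712, was 1.18 and 1.28 in the replicate 1 and replicate 2 lists and 1.04 for scores from the median up. The share of gaps under 1000 bp, 43.5%, was 13.3% and 25.96% in the replicate lists and 10.1% for scores from the median up. The bin at 11 to 12 Mb, 1.71 times the rest, was 1.22 and 1.37 in the replicate lists, 1.29 among all series-wide peaks and 1.37 with peaks joined, and 1.50 with support by either replicate alone. Support by both replicates, 52.8%, was 85.9% for scores from the median up and 62.8% to 77.0% for a single replicate. The cause was not tested. The alternatives without the first Mb and all those of the left width and score ratios were added after the data had been seen. No paired analysis was possible because input samples have no values in the files used here. Depth is unknown and limits every count.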

Other observations

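Peaks of II outside the supported set were mostly weak but not always. Of the 1013 series-wide peaks that were not supported, the highest scores, chosen after their values were seen, were 86.84 at II 1233525 to 1234425, which met replicate 1 only, and 79.77 at II 13199551 to 13199922 and 73.54 at II 12726504 to 12727028, which met replicate 2 only. In the replicate 1 list 4 peaks met no series-wide peak, with scores up to 88.85. In the replicate 2 list 188 did, with a median score of 112. The highest of these were II 6186853 to 6188322 with 1356.32 and II 12729027 to 12731050 with 1045.05.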
